A study of Mus musculus with 10 samples.

Results

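The genes of the piRNA pathway and of germ cell RNA control were examined as a set of 36 members, out of 21774 protein-coding genes in the RefSeq annotation of the mouse assembly GRCm38.p6. Members were chosen by gene symbol, for their known roles, but with earlier results of these data known, so the choice was not blind to the lists. They comprised 3 PIWI proteins, 8 enzymes and partners of piRNA biogenesis, 2 helicases of germ granules, 9 Tudor domain proteins, 10 proteins that bind mRNA or control its translation, and 4 m6A readers and regulators of meiotic entry. Each symbol, or a synonym that belonged to 1 gene, was looked up in the deposited lists of transcription start sites (TSSs) enriched for ARID2, and all 36 were found in the annotation.

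PIWI-interacting RNAs (piRNAs) are small RNAs of the germ line that guide PIWI proteins to transposon and other transcripts. Long precursors are unwound, cut at the surface of mitochondria, loaded onto PIWI proteins, trimmed and methylated at their end, and Tudor proteins assemble this machinery by binding methylated arginines of the PIWI proteins. In the testis the pathway is needed to silence transposons and to complete spermatogenesis, and other RNA-binding proteins store, translate or remove mRNAs while the cells enter and pass through meiosis.

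ARID2, a subunit specific to the PBAF form of the SWI/SNF chromatin remodeler, was mapped by CUT&RUN, in which an antibody against the protein brings a nuclease to chromatin and the fragments set free are sequenced. The cells came from testes of CD1 wild-type mice in which spermatogenesis had been synchronized. The pups received WIN 18,446, an inhibitor of retinoic acid (RA) synthesis, from P1 to P10 and 1 dose of RA at P11, and cells were isolated at P28 (17 days after RA) or at P28.5 (17.5 days after RA) as populations enriched for spermatocytes of late prophase-I and metaphase. At each age there were 2 ARID2 libraries, 2 BRG1 libraries made with different antibodies and 1 library without IgG, and all of them shared strain and treatment. The labels do not say whether the libraries of an age came from separate animals.

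The authors averaged the ARID2 replicates over the control and grouped TSSs by k-means, and the deposited lists hold the TSSs of cluster-1 (Cl-1), the ARID2-enriched cluster, at each age. A row of a list is a position with a gene symbol, without signal, strand or depth. At P28 the list had 11553 rows at 7144 positions, and at P28.5 it had 8514 rows at 5193 positions. With 1 averaged list per age there was no spread between replicates, so the counts below are a description without a test, and a change between the ages has no replicate check. The population was mixed, so fewer cells with ARID2 at a TSS and less ARID2 per cell cannot be told apart.

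At P28, 14 of the 36 members (38.9%) were in Cl-1, where 16.8% of all protein-coding genes were listed. At P28.5, 10 members (27.8%) were in Cl-1, against 11.6% of all protein-coding genes. By role, the Tudor domain proteins had 6 of 9 members listed at P28 and 5 of 9 at P28.5, and the m6A readers and regulators of meiotic entry had 2 and 3 of 4. The mRNA-binding proteins had 2 of 10 at P28 and 1 of 10 at P28.5, and both germ granule helicases were without a row at either age. These roles differ in strand, which bears on listing, as described below. All 4 m6A readers and regulators of meiotic entry lie on the plus strand and both helicases on the minus strand. Tdrd6, a Tudor protein, counted only through rows at its 3′ end, at least 14964 bp from a start. Role and strand were not separated in these counts. Since 1 gene is 2.78% of the whole set and a larger part of any role, the shares of single roles move in large steps.

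Listed at both ages were 9 members, Mov10l1, Tdrd3, Tdrd7, Tdrd9, Tdrkh, Rnf17, Pum2, Ythdc2 and Meioc, and 8.48% of all protein-coding genes were listed at both ages. At P28 only, 5 members were listed, namely Henmt1, Cpeb4, Piwil4, Gtsf1l and Tdrd6, against a background of 8.33%. Ythdc1 was the 1 member listed at P28.5 only, against 3.13%, and 21 members were in neither list. The plot of members by age shows these rows by role.

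**Figure D1:**
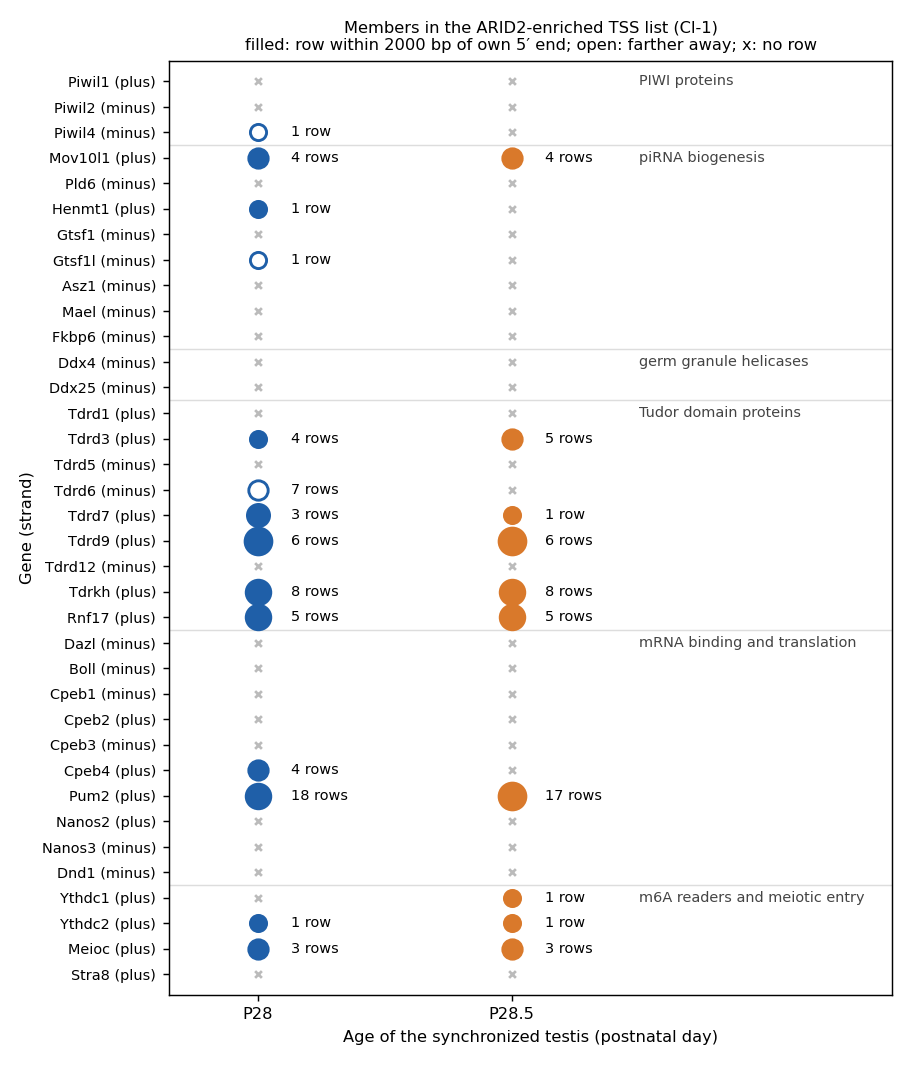
Each of the 36 members (vertical axis, with its strand, grouped by role) is shown at P28 and P28.5 (horizontal axis, postnatal day). A circle marks a gene with rows in Cl-1, larger with more distinct positions and labelled with its number of rows, filled where a row lies within 2000 bp of an annotated 5′ end of the gene and open where all its rows lie farther away, and a cross marks no row. The open circles are Piwil4, Gtsf1l and Tdrd6 at P28, and the filled circles at both ages belong to the 9 shared members.

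The promoters that carry these rows are shown first, as the RefSeq sequence of GRCm38.p6 from 250 bases before to 50 bases after an annotated start, read 5′ to 3′ along the gene. Of the 36 members, 30 had such a window in the table used here. Piwil2, Tdrd6, Rnf17, Cpeb2, Ythdc2 and Dnd1 had no entry. The 6 windows below stand for members listed at both ages (Mov10l1, Tdrd9, Tdrkh), at P28 only (Henmt1) and with positions that changed between the ages (Tdrd7, Pum2), and capitals mark each position listed under the gene's own symbol at either age:
Mov10l1 (chr15:88982744-88983043, plus strand): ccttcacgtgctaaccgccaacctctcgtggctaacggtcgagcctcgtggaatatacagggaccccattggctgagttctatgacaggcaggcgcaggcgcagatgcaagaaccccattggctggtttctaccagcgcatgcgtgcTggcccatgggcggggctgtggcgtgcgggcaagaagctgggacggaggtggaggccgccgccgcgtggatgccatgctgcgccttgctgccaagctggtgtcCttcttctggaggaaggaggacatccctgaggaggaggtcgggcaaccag
Henmt1 (chr3:108940307-108940606, plus strand): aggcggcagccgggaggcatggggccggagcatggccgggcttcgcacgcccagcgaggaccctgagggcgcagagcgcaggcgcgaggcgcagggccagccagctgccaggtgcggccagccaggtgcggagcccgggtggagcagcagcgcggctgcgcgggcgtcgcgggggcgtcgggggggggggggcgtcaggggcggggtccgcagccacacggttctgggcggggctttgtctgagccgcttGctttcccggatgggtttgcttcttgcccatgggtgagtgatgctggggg
Tdrd9 (chr12:111971309-111971608, plus strand): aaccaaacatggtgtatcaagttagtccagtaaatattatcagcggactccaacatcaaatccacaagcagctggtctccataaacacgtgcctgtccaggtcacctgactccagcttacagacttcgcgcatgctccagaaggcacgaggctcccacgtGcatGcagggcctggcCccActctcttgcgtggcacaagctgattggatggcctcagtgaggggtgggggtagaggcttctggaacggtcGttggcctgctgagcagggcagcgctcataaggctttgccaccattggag
Tdrkh (chr3:94412994-94413293, plus strand): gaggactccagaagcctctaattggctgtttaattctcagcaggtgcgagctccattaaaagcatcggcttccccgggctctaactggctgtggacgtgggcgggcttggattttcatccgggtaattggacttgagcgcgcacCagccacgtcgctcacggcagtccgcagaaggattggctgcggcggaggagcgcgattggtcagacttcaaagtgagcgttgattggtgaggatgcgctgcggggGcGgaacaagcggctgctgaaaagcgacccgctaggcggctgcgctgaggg
Tdrd7 (chr4:45972047-45972346, plus strand): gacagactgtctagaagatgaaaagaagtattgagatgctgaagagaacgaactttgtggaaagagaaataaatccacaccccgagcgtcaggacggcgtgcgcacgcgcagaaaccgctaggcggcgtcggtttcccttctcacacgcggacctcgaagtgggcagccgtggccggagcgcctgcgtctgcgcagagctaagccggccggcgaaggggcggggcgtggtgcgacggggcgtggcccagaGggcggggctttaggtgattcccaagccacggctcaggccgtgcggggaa
Pum2 (chr12:8674009-8674308, plus strand): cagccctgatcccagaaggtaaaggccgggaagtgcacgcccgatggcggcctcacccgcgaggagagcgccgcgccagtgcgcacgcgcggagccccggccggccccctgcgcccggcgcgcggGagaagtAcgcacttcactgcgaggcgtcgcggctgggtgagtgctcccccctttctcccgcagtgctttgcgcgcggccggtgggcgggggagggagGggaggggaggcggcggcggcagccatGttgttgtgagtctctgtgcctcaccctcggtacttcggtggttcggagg

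Mov10l1 and Tdrkh had 2 and 3 listed positions inside the window and Tdrd9 had 5, spread over a short stretch around the start. The window of Tdrd7 held only its position listed at both ages. That of Pum2 held none of its positions listed at P28.5 only. The 300 bases of Pum2 held 37 CpG dinucleotides, those of Tdrd7 held 32, those of Henmt1 31 and those of Tdrkh 25. In Mov10l1 there were 20 and in Tdrd9 10, and the median over 21263 promoter windows of protein-coding genes was 13, with quartiles of 4 and 24. Windows with a listed TSS thus ran from below the median to far above the upper quartile of CpG number.

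For comparison, the windows of Piwil1 and Tdrd1 are given, relatives of listed members with no row of their own at either age, and here the capital marks the annotated start:
Piwil1 (chr5:128735996-128736295, plus strand): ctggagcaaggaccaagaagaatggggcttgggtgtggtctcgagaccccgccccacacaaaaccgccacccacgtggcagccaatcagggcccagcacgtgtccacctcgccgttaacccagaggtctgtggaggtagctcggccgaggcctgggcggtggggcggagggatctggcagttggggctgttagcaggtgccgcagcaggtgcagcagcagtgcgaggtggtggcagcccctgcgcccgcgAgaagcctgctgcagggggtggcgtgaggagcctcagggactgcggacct
Tdrd1 (chr19:56825959-56826258, plus strand): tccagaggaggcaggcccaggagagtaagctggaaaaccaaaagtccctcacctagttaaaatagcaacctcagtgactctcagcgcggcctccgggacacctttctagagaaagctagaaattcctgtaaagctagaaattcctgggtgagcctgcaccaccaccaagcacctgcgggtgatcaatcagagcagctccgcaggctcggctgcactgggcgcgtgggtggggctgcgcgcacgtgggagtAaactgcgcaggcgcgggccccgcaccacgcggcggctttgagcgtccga

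Piwil1 held 18 and Tdrd1 held 20 CpG dinucleotides in these windows, which is within the range of the listed windows above.

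The PIWI proteins bind piRNAs and cleave or silence the transcripts they match. Piwil1 (GeneID 57749), which acts with pachytene piRNAs in spermatocytes and round spermatids, had no row at either age although it lies on the plus strand. The closest listed TSS belonged to Fzd10 at P28, at a distance of 134965 bp, and to Ran at P28.5, at 283910 bp. Piwil2 (GeneID 57746), which works from the foetal gonad onward, had no row, and the nearest position at both ages was 6612 bp away under Mir320. Piwil4 (GeneID 330890), the nuclear PIWI protein of foetal germ cells, had 1 row at P28, at chr9:14702358. This row lay in a coding exon, 16029 bp from the nearest annotated 5′ end of Piwil4 and 582 bp from the 3′ end of the gene. Its position equals the 3′ end of a Piwil4 transcript in the GENCODE vM21 annotation. Within 2000 bp of a start of these 3 PIWI genes there was no listed position at either age.

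Among the genes of piRNA biogenesis, the starts of Mov10l1 and Henmt1 were listed. Mov10l1 (GeneID 83456) encodes the RNA helicase that binds piRNA precursors and lies on chromosome 15, plus strand, from 88982891 to 89055152. Its rows were the same at P28 and P28.5, with 3 at 88982891 and 1 at 88982994, and both positions are annotated 5′ ends of Mov10l1. The first lies in its 5′ untranslated region, and the second is annotated as that region or as a coding exon, depending on the transcript.

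Henmt1 (GeneID 66715), the methyltransferase that modifies the 3′ end of mature piRNAs, had 1 row at P28, at chr3:108940557, and none at P28.5. The position is an annotated 5′ end that lies 1103 bp downstream of the outermost one, and at P28.5 the nearest listed TSS was 285464 bp away. Gtsf1l (GeneID 68236), a relative of the PIWI cofactor Gtsf1, had 1 row at P28 at chr2:163122580. It lay outside any annotated gene, 32979 bp upstream of the single start of Gtsf1l and 35 bp from the start of the plus-strand gene Gm11454.

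The other 5 genes of this role, all on the minus strand, had no row. They were Pld6, the endonuclease of the mitochondrial surface, Asz1, a scaffold on mitochondria, Gtsf1, Mael and the cochaperone Fkbp6. The TSS closest to a start of Pld6 lay at 22423 bp at both ages. For Asz1 the distance was 1012417 bp at P28 and 3840510 bp at P28.5.

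Ddx4, the Vasa helicase that marks germ cells, and Ddx25, a helicase that carries mRNAs to translation in spermatids, had no row under their own symbols. The start of Ddx25, on the minus strand, faces that of Pus3 at 90 bp, and Pus3 had 1 row at P28.5 and none at P28. That row lay 101 bp from the start of Ddx25. When any listed position near a start was counted, Ddx25 therefore became a member listed at P28.5 only. At this shared region the list does not separate Ddx25 from Pus3.

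The Tudor domain proteins, which join PIWI proteins and other partners into germ granules, held 5 of the 9 members listed at both ages. Tdrd9 (GeneID 74691), a helicase with a Tudor domain that acts in transposon silencing, had 6 rows at 5 positions at each age, between 111971469 and 111971559 of chromosome 12. They lay from 19 bp upstream of the outermost annotated 5′ end to 71 bp downstream of it. Tdrkh (GeneID 72634), which tethers PIWI proteins to mitochondria for trimming, had 8 rows at 4 positions at each age, between 94413138 and 94413318 of chromosome 3. Rnf17 (GeneID 30054), a Tudor protein that limits piRNA amplification, had 5 rows at 4 positions at each age, between 56402634 and 56402697 of chromosome 14. In all 3 genes each listed position and its number of rows were identical at P28 and P28.5.

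Tdrd3 (GeneID 219249), a broadly expressed reader of methylated arginines, had 4 rows at chr14:87416583 at P28. At P28.5 it had these 4 rows and 1 more, at 87416757, which lay 149 bp downstream of the nearest annotated 5′ end. Tdrd3 thus gained 1 position at the later age and lost none.

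Tdrd7 (GeneID 100121), a component of the chromatoid body, changed in the other direction. It had 3 rows at P28, at 45972297, 45972592 and 45998967 of chromosome 4, and at P28.5 only the row at 45972297. The shared position is an annotated 5′ end 7270 bp downstream of the outermost one and lies in CpG-rich sequence, with an observed over expected CpG ratio of 0.988 within 500 bp on either side. At the outermost 5′ end of Tdrd7, where there was no row at either age, this ratio was 0.209. The position at 45998967, the start of a shorter transcript listed at P28 only, had a ratio of 0.121.

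Tdrd6 (GeneID 210510), a large Tudor protein of the chromatoid body, had 7 rows at P28, 4 at 43615334 and 3 at 43615335 of chromosome 17, and none at P28.5. Both are annotated 3′ ends of this minus-strand gene, 14965 and 14964 bp from its nearest annotated 5′ end. Tdrd1, Tdrd5 and Tdrd12 had no row at either age. Tdrd1 (GeneID 83561), a scaffold for Piwil2, is the 1 plus-strand gene among them and has 9 annotated 5′ ends, and the closest listed TSSs were those of Adrb1 at P28 (122394 bp) and Vwa2 at P28.5 (43186 bp). The Tudor family was thus divided, with Tdrd3, Tdrd7, Tdrd9, Tdrkh and Rnf17 listed at their starts at both ages and Tdrd1 without a row.

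Of the proteins that bind mRNA or control translation, Pum2 and Cpeb4 had rows. Pum2 (GeneID 80913), a Pumilio repressor of mRNAs with its binding element, had 18 rows at P28 and 17 at P28.5. At both ages 11 rows lay at 8674232 and 3 at 8674259 of chromosome 12. The remaining rows shifted between the ages, with 3 rows at 8674134 and 1 at 8674141 at P28 only, and 1 row each at 8674681, 8674686 and 8674724 at P28.5 only. The positions of P28.5 lay further into the gene, 589 to 632 bp downstream of the outermost 5′ end against 42 and 49 bp for those of P28. The number of rows counts listed entries and is not a signal. The median over listed genes was 2 rows at each age, and 32 genes at P28 and 34 at P28.5 had at least as many rows as Pum2.

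Cpeb4 (GeneID 67579), which binds the cytoplasmic polyadenylation element, had 4 rows at P28 and none at P28.5. Of these, 3 lay at chr11:31870940, an annotated 5′ end, and 1 lay 56 bp upstream of it. Its relatives Cpeb1, Cpeb2 and Cpeb3 had no row at either age, and of these Cpeb2 lies on the plus strand like Cpeb4. For Cpeb2 the closest listed TSS lay at 282149 bp at P28 and at 2260121 bp at P28.5.

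Dazl and Boll, translational activators of the DAZ family, had no row. Nanos2 and Nanos3, which keep spermatogonial stem cells and primordial germ cells, and their partner Dnd1 also had none. Nanos2 lies on the plus strand with a single start, and a TSS under Mypop was listed 3721 bp away at both ages. The nearest listed TSS to the minus-strand genes Dazl and Boll lay 53960 and 125551 bp away at P28.

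All 3 genes of the last role that had rows were listed at P28.5, and 2 of them also at P28. Ythdc2 (GeneID 240255), an m6A-binding helicase, and Meioc (GeneID 268491), its partner in closing the mitotic programme at meiotic entry, were listed at both ages. Ythdc2 had 1 row at each age, at the annotated 5′ end 44828665 of chromosome 18. Meioc had 2 rows at 102664966, 385 bp upstream of its outermost 5′ end, and 1 row at the 5′ end 102665585 of chromosome 11, again the same at both ages.

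Ythdc1 (GeneID 231386), the nuclear m6A reader, was absent from the list at P28, with no listed TSS closer than 1960747 bp. At P28.5 it had 1 row, at chr5:86804490, which lay 224 bp downstream of the nearest annotated 5′ end and equals no annotated transcript end. Stra8 (GeneID 20899), the RA-induced gene of meiotic initiation, had no row at either age, and the nearest TSS, 139570 bp away, was listed under Agbl3 at both ages.

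The strand of a member bears on every count above. The lists carry no strand, and most positions that match a transcript end match the lower coordinate, which for a minus-strand gene is not its start. A row under a gene's own symbol at one of its annotated 5′ ends was found at P28 for 2178 of 10871 protein-coding genes on the plus strand and 1 of 10903 on the minus strand. At P28.5 these numbers were 1875 and 3. On the minus strand rows did occur near a start, since 384 of 830 genes in Cl-1 at P28 and 289 of 312 at P28.5 had a row of their own within 2000 bp of a 5′ end. The lack of a row for a minus-strand member therefore says less about ARID2 at its start than it does for a plus-strand member.

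Of 17 plus-strand members, 11 (64.7%) were in Cl-1 at P28, where 26% of plus-strand protein-coding genes were listed, and 10 (58.8%) at P28.5, against 20.4%. At both ages 9 of these 17 were listed, with a background of 14.8%. Of 19 minus-strand members, 3 (15.8%) were listed at P28, against 7.61% of minus-strand genes, and 0 at P28.5, against 2.86%. The plus-strand members without a row were Piwil1, Tdrd1, Cpeb2, Nanos2 and Stra8. The plot of shares by strand sets the members beside all protein-coding genes.

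**Figure D2:**
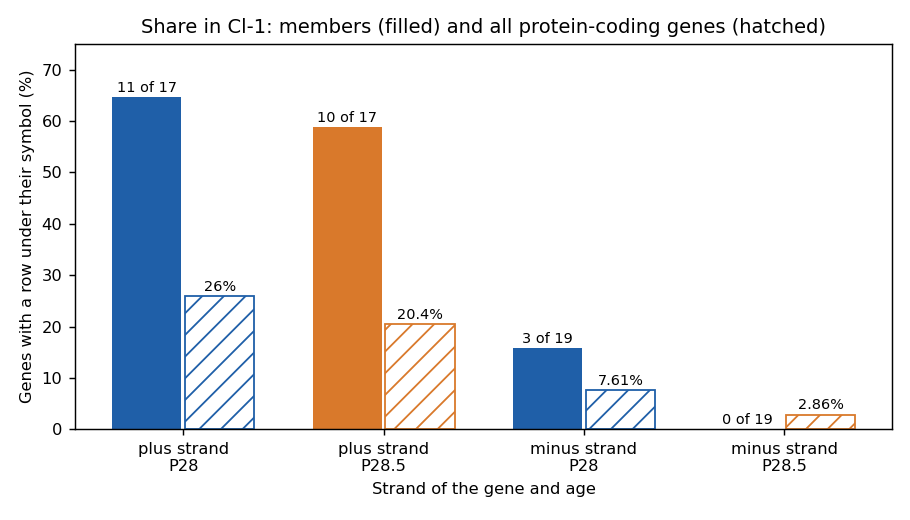
Bars give the percentage of genes with a row under their symbol (vertical axis, from 0) for plus-strand and minus-strand genes at P28 and P28.5. Filled bars are the members, labelled with their number, and hatched bars are all protein-coding genes of that strand, and the filled bars reach 64.7% and 58.8% for plus-strand members against 26% and 20.4%.

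Among minus-strand members, Piwil4, Gtsf1l and Tdrd6 were the only ones with a row of their own, at P28, and all 4 positions lay at least 14964 bp from a start of the gene. A plus-strand gene started within 1000 bp of the start of Fkbp6, Ddx25 or Cpeb3, in the opposite direction. These were Trim50 at 75 bp, Pus3 at 90 bp and Marchf5 at 32 bp, and Pus3 at P28.5 was the 1 of them with a row. Mov10l1, Tdrd7 and Tdrkh faced the minus-strand genes Mlc1, Gm52728 and 1700040D17Rik at 198, 150 and 288 bp, and none of these had a row.

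When a member counted as listed through any position in the list up to 2000 bp from an annotated 5′ end, whatever the symbol, 11 were listed at P28 (background 17.3%) and 11 at P28.5 (background 14.8%). Under this count 9 members were listed at both ages (background 10.9%). The 2 listed at P28 only were Henmt1 and Cpeb4 (background 6.37%), and the 2 at P28.5 only were Ythdc1 and Ddx25 (background 3.86%). Counted in this way, the numbers of members at the 2 ages were equal. With a limit of 500 bp the same numbers, 2 and 2, were listed at 1 age only, against 5.7% and 3.78% of all protein-coding genes. With rows of the gene's own symbol up to 2000 bp, they were 2 at P28 only (background 5.47%) and 1 at P28.5 only (background 3.17%). Where the row had to equal an annotated 5′ end, 11 members were listed at P28 (background 10%), 9 at P28.5 (8.62%) and 9 at both ages (6.19%). That left 2 at P28 only (3.82%) and 0 at P28.5 only (2.43%).

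The rows of plus-strand members lay close to annotated starts. At P28 their 57 rows covered 29 positions, of which 16 were an annotated 5′ end of the gene and 27 lay within 100 bp of one. At P28.5 their 51 rows covered 27 positions, of which 14 were an annotated 5′ end and 23 lay within 100 bp. The farthest was the upstream position of Meioc at both ages, at 385 bp. Of the 38 distinct positions of all members, 20 equalled a transcript end of the RefSeq annotation used here, 2 equalled one in GENCODE vM21 alone and 16 equalled neither. The plot of distances shows each position.

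**Figure D3:**
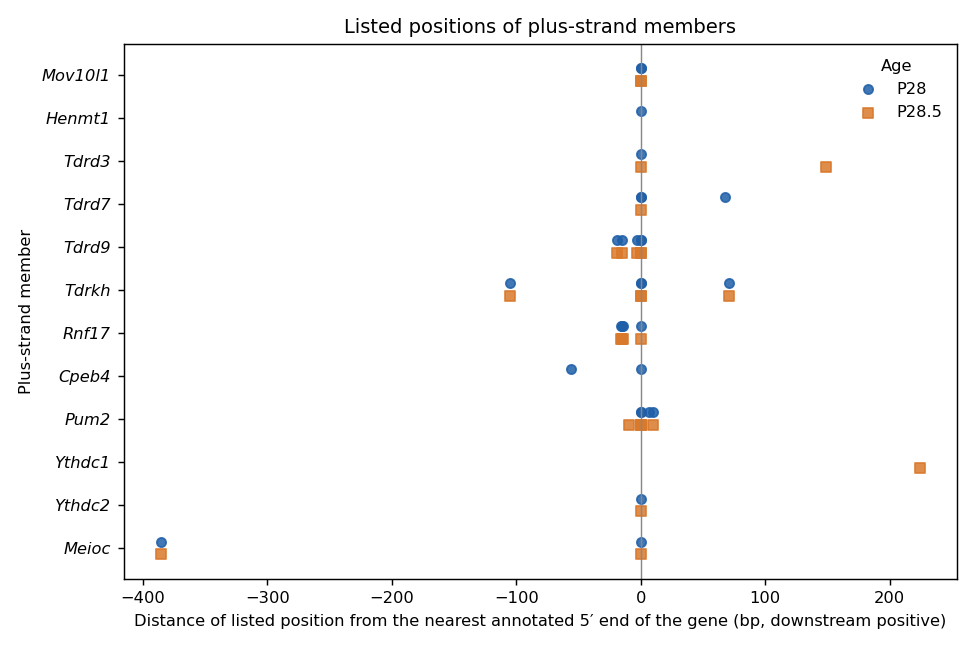
Each point is a listed position of a plus-strand member (vertical axis), placed by its distance from the nearest annotated 5′ end of that gene (horizontal axis, bp, downstream positive), with circles for P28 and squares for P28.5. Most points lie at or within 100 bp of 0, and the farthest are Meioc at 385 bp upstream at both ages and Ythdc1 at 224 bp downstream at P28.5.

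Most of the members' positions were common to both ages. There were 33 positions at P28 and 27 at P28.5, and 22 were shared, or 66.7% of the first and 81.5% of the second. Over the whole lists 3671 positions were shared, or 51.4% of the first and 70.7% of the second, and the difference from the members was not tested. Mov10l1, Tdrd9, Tdrkh, Rnf17, Ythdc2 and Meioc had the same positions and the same number of rows at both ages, while Tdrd3, Tdrd7 and Pum2 kept at least 1 position and changed others.

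CpG content was described around annotated 5′ ends, as observed over expected CpG in the 500 bp before and after the end. At the outermost 5′ end the median ratio was 0.534 for the 15 members listed at either age and 0.42 for the 21 in neither list, and 0.516 for all protein-coding genes. Both groups of members spanned nearly the same range, from 0.203 to 0.875 for the listed and from 0.0768 to 0.876 for the unlisted, so they overlapped almost fully. Within the plus strand the medians were 0.573 for 12 listed members and 0.256 for the 5 without a row. The 34 positions listed for plus-strand members had a median of 0.775, between the medians of all listed positions at P28 (0.723) and P28.5 (0.798). In Tdrd7, Henmt1, Cpeb4 and Ythdc2 a listed start lay downstream of the outermost one and had a higher ratio than it. Tdrd3, Pum2, Meioc, Rnf17 and Tdrd9 showed smaller rises of this kind. The downstream listed start of Mov10l1 (0.604 against 0.609) and that of Tdrd7 at 45998967 (0.121 against 0.209) had lower ratios.

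Plus-strand members were also set beside all plus-strand genes by the CpG ratio of the outermost 5′ end. The share of plus-strand protein-coding genes in Cl-1 at P28 was 13.9% in quintile 2 of CpG ratio and 21.4% in quintile 3, where 2 of 4 and 5 of 6 plus-strand members were listed. In quintile 5, the highest, it was 46.3%, with 2 of 3 members, and in quintile 1, the lowest, 8.55%, with 0 of 1 (Cpeb2). At P28.5 the shares in these quintiles were 5.47%, 12.1% and 47.1%, with 1 of 4, 4 of 6 and 3 of 3 members, and 3.49% in quintile 1 with 0 of 1. The listed members of quintile 2, Henmt1 and Tdrd7, had rows at CpG-rich starts inside the gene (0.756 and 0.988), as did Cpeb4 (0.787) and Ythdc2 (0.977) of quintile 3. Rnf17, Tdrd9 and Mov10l1 were the members of quintile 3 whose listed starts had intermediate ratios, at or close to those of their outermost 5′ ends. The outermost ratios were 0.534, 0.435 and 0.609, and the listed start of Rnf17 had 0.5445. Conversely, Cpeb2 had a CpG-rich 5′ end (0.947) without a row at either age. The plot of CpG content shows every annotated start of the plus-strand members.

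**Figure D4:**
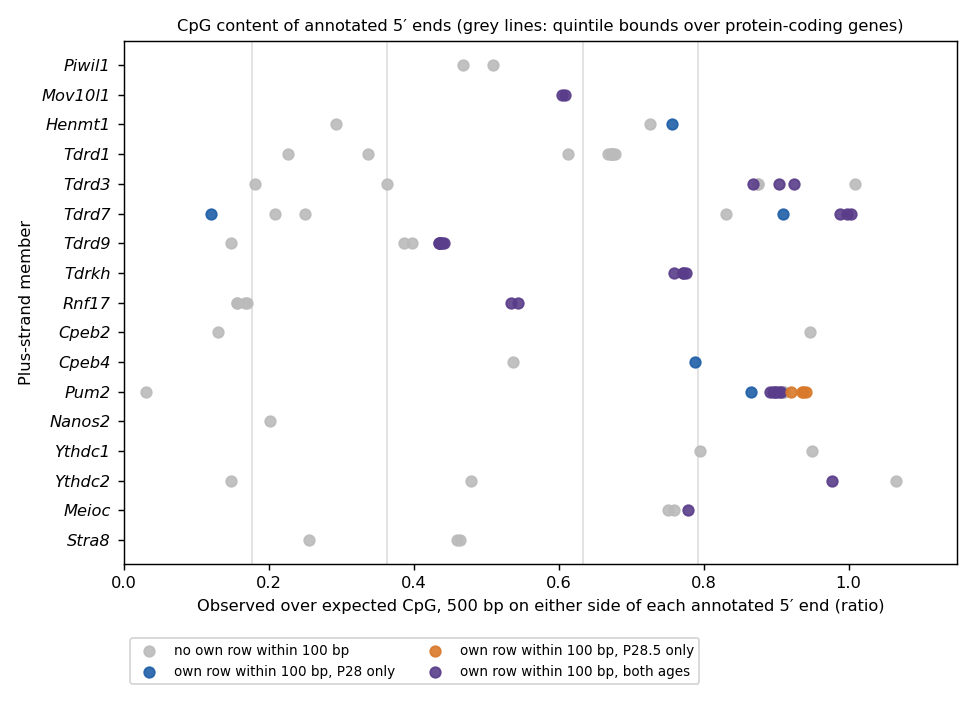
Each point is an annotated 5′ end of a plus-strand member (vertical axis), placed by the observed over expected CpG ratio within 500 bp on either side (horizontal axis). Colours mark whether a row of the gene lay within 100 bp at P28 only, at P28.5 only, at both ages or at neither, and grey lines are the quintile bounds over protein-coding genes, from 0.178 to 0.792. Listed starts of Tdrd9 lie near 0.44, those of Mov10l1 near 0.61 and those of Pum2 and Tdrd3 above 0.86, and the CpG-rich start of Cpeb2 is without a row.

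Short motifs were counted on both strands of the promoter windows, 43 windows of 30 members against 21263 windows of protein-coding genes. CACGTG, an E-box, was in 30.2% of member windows and in 7.84% of all windows, and TGCGCA, a part of the sequence bound by NRF1, in 37.2% and 9.74%. GGGCGG, a GC box, was in 60.5% against 46.2%, and AACNGNC, the core bound by MYB factors, in 46.5% against 32.2%. TATAAA (11.6% against 12.6%), CCAAT (34.9% against 38.2%) and TGACGTC (2.33% against 3.84%) were close to or below all promoters. Windows of 1 gene can overlap, so they are not independent. Member windows and all windows were not matched for CpG number, and the E-box, the NRF1 motif and the GC box each contain a CpG. TGACGTC also contains a CpG, and its share in member windows rests on 1 window. Whether the higher shares go beyond the CpG content of the windows was not tested. CACGTG was in 11 members, of which Mov10l1 and Tdrd9 were listed, and in the windows shown above it occurs once in Mov10l1 and Tdrd1 and 2 times in Tdrd9 and Piwil1. TGCGCA was in 12 members, of which Piwil4, Tdrd7 and Pum2 were listed, Piwil4 only by a row 16029 bp from its nearest start. Of all 30 members with a window 12 were listed, including Piwil4 and Gtsf1l, whose windows hold no listed position. Most members with either motif lie on the minus strand. On the plus strand 2 of 4 members with CACGTG and 2 of 3 with TGCGCA were listed. For the other motifs these counts were 9 of 10 (GGGCGG), 7 of 10 (AACNGNC), 5 of 8 (CCAAT), 1 of 3 (TATAAA) and 1 of 1 (TGACGTC). Of all plus-strand members, with or without a window, 12 were listed at either age and 5 were not.

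Other genes of these pathways were counted in the same way. Of the 3 factors tied to piRNA transcription, Mybl1, Tcfl5 and Btbd18, 0 were listed at either age, where the background was 16.8% and 11.6%. With 3 genes, of which Mybl1 and Tcfl5 lie on the minus strand, this count cannot be told apart from the background. Among 27 further piRNA and germ granule factors, 8 (29.6%) had rows at P28 and 5 (18.5%) at P28.5, beside the background of 16.8% and 11.6%. Of these 27, 16 lie on the plus strand, where the background was 26% and 20.4%. They held 6 of the genes listed at P28 and all 5 at P28.5. Wdr77, a partner of the arginine methyltransferase Prmt5, Snd1, itself a Tudor protein, and Hspa2, a testis chaperone, had rows at a start at both ages. Dnmt3l, the cofactor of transposon methylation, Adad1 and Adad2 were listed at P28 only and Stk31 and Ddx39b at P28.5 only. Ago3 and Dicer1, on the minus strand, had rows at P28 alone, 3342 and 11146 bp from a start.

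Among 18 writers, readers and erasers of m6A, 6 (33.3%) had rows at P28 and 7 (38.9%) did so at P28.5, beside 16.8% and 11.6% of all protein-coding genes. On the plus strand 4 of 6 had rows at P28 and 5 of 6 at P28.5, against 26% and 20.4% of plus-strand genes. Virma, Fto, Alkbh5, Ythdf3 and Cbll1 were listed at both ages, Zc3h13 and Rbm15b at P28.5 only and Rbm15 at P28 only, 7179 bp from its start. The other 10 were in neither list.

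Of 40 genes of translational control and deadenylation, 17 (42.5%) had rows at P28 and 13 (32.5%) at P28.5, against 16.8% and 11.6% of all protein-coding genes, and all 13 of the latter also at P28. Of the 40, 23 lie on the plus strand, and these held 16 of the genes listed at P28 and all 13 at P28.5, where the plus-strand background was 26% and 20.4%. Those listed at both ages included the CCR4-NOT subunits Cnot3, Cnot8, Cnot9 and Cnot11, the deadenylase genes Pan2 and Pan3, the translational repressors Ybx2 and Eif4enif1, the polyadenylation factors Sympk and Cpsf4, and Larp4, Paip2 and Tent5b. Pabpc2, Paip1 and Zfp36l2 were among the genes listed at P28 only, with their nearest rows 31333, 51 and 2109 bp from a start. Of 8 further genes of meiotic entry, Mga had 4 rows at P28 and 14 at P28.5, and Max had 1 row at P28, 22701 bp from its start.

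The lists hold TSSs and no expression, so the labelled cell population could not be checked by marker levels. Of 7 spermatocyte markers, 1 (Sycp3) was listed at P28 and 3 (Sycp3, Hormad1 and Spo11) at P28.5. Round spermatid markers had 2 of 6 with rows at P28 and 0 of 6 at P28.5, but the rows lay 825 bp (Tnp1) and 25193 bp (Spaca1) from a start. Sertoli cell markers had 1 of 6 at P28, Cldn11, with its rows 52934 bp from a start, and 0 of 6 at P28.5. The background for these counts is again 16.8% and 11.6% over both strands, and 26% and 20.4% for plus-strand genes. Of the 7 spermatocyte markers 4 lie on the plus strand, among them all that were listed. Of the 6 round spermatid markers 1 does. Marker group and strand were not separated, so the groups cannot be compared by these counts. No marker of spermatogonia (6), Leydig cells (4) or peritubular cells (3) was listed at either age.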

How the data were processed

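CUT&RUN libraries for ARID2 (2 per age), BRG1 (2 per age) and a control without IgG (1 per age) were made from synchronized testes at P28 and P28.5. The authors trimmed the reads, aligned them to mm10 with Bowtie2, processed them with SAMtools and deepTools (tools as named in the submitters' processing notes), removed blocklisted regions and duplicates, scaled each library and took the log2 ratio to the control. They averaged replicates and clustered TSSs by k-means, which ties each list to the mean of both libraries and hides their spread. The 2 deposited lists give positions and symbols, so depth per sample could not be read from them and precision could not be estimated. The BRG1 libraries, signal tracks and peaks were not analysed here.

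Symbols were matched to RefSeq genes of GRCm38.p6, the assembly behind mm10, by their current name or an unambiguous synonym, which placed 99.8% of them at each age. A gene was in Cl-1 when any row carried its symbol. Distances are to its nearest annotated 5′ end. The promoter sequences are those of RefSeq for this assembly. All members are named, with their neighbouring listed genes, and of the other lists the genes in Cl-1, of which 1 is not reported here. Sequences were picked by a rule that put plus-strand members with a row within 50 bp of a start first. The members and lists were chosen with earlier results of these data known. Look-ups, distances, CpG ratios and motif counts were tested on simulated lists. Python 3.11.15, numpy 2.4.6 and matplotlib 3.10.9 were used.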

Additional observations from a re-analysis of the deposited data

How the results depend on the processing

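The counts of members in Cl-1 were 14 (P28), 10 (P28.5) and 9 (both ages). They stayed within 1.5 times of these values under each way of counting a listed gene and without synonyms. Plus-strand members alone gave 11, 10 and 9, but out of 17 members in place of 36. The listed share was thus 64.7% in place of 38.9% (P28) and 58.8% in place of 27.8% (P28.5). Most or all listed members lie on the plus strand, so these 3 counts could hardly fall and are no check of stability. Minus-strand members alone gave 3 at P28, 0 at P28.5, 0 at both ages, 3 at P28 only and 0 at P28.5 only. The 5 members at P28 only became 2 with plus-strand members alone and under each of the 4 rules based on distance, since the rows of Piwil4, Gtsf1l and Tdrd6 lie far from their starts. The 1 member at P28.5 only became 2 with any listed position within 2000 or 500 bp, through the row of Pus3 at Ddx25, and 0 where the row had to equal a 5′ end. The background of 16.8% at P28 and 11.6% at P28.5 became 8.23% and 5.45% over all annotated genes, 26% and 20.4% for plus-strand genes and 7.61% and 2.86% for minus-strand genes. Taking the 5′ end with the highest CpG ratio in place of the outermost one moved the medians to 0.775 for listed members and 0.678 for those in neither list. No paired analysis was possible because each list was made from averaged replicates, and for the same reason no library could be left out. The lists state which TSSs were in Cl-1 and not how far from its limit they were.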
